A study of Homo sapiens with 6 samples.

Results

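The RAB genes encode small GTPases that direct membrane traffic between organelles, and their transcripts were followed here in an AGO2 pull-down from MDA-MB-231 cells. The members were the protein-coding genes whose symbol is RAB followed by digits and optional letters, which leaves out RAB interactors such as RABGAP1L, with a summed unstranded count of at least 200 over the 4 mimic libraries. This held for 50 of the 64 RAB genes in the annotation, among 13078 genes that reached the minimum out of 60708 in the files. The choice used total abundance and no difference between groups. The members closest to the minimum were RAB37 with 327 counts and RAB40A with 345, and the closest genes outside it were RAB41 with 141 and RAB7B with 108. The 14 genes outside also included RAB3B, RAB4B, RAB39A, RAB33A and the epithelial gene RAB25, which had 13 counts.

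MDA-MB-231 is a triple-negative breast cancer line of human origin, and it was the single line used. Cells received either a mimic of miR-99b-5p or a scrambled control oligonucleotide by transfection, at 25 nM, and were harvested after 18 hours. AGO2, the Argonaute protein that carries mature microRNAs to their target transcripts, was pulled down with its RNA (AGO2-IP), and the RNA that was not captured formed the flow-through. There were 2 AGO2-IP and 2 flow-through libraries of mimic cells, and 1 AGO2-IP and 1 flow-through library of control cells. Labels give each control library its fraction, and they were followed. Another list of the libraries given with the study names both as replicates of the control and gives no fraction. The study's methods likewise give 2 replicates per condition and name AGO2-IP of mimic and of control cells as the conditions. If both control libraries were of the same fraction, the ratios between control fractions printed here would not be interpretable. The AXL, VIM and EGFR transcripts that mark this line were present in every library, from 60.5 to 2729 CPM (gene counts scaled to a fixed total per library), while the leukocyte gene PTPRC stayed at or below 1.86 CPM. Of 5 genes listed as absent or low in triple-negative cells, ESR1 and PGR stayed at or below 0.991 CPM and CDH1 at or below 3.96 CPM, but GATA3 had 8.26 to 24.8 CPM and ERBB2 37.7 to 172 CPM.

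The mimic libraries held 38022779 to 48544756 counts on genes, while the control cells gave 8076375 for AGO2-IP and 7772149 for flow-through. Rows that name no gene took at least 92.3% of the control read pairs, against 21.4% to 47.2% in mimic libraries. Mitochondrial genes took 43.4% of the gene counts of the control flow-through and at most 3.48% in any other library. RAB genes together made up 0.402% and 0.353% of the gene counts of mimic AGO2-IP, 0.345% and 0.220% of mimic flow-through, 0.302% of control AGO2-IP and 0.186% of control flow-through.

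A RAB protein alternates between a GDP-bound form held in the cytosol and a GTP-bound form on a membrane, where it recruits effectors such as tethers and motors. Guanine nucleotide exchange factors (GEFs) switch it on, GTPase-activating proteins (GAPs) switch it off, and lipid anchors added by RAB geranylgeranyl transferase attach it to the membrane. In cancer cells the family is known for its part in integrin recycling, secretion of proteases and vesicles, and autophagy. Many members come as close relatives with near-identical proteins but separate genes and separate untranslated regions, so their transcripts can differ while the proteins share a role.

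The microRNA that was transfected is printed first, because its seed (bases 2 to 8, in capitals) sets which sites in RAB transcripts count as seed matches. It is encoded at chr19:51692618-51692639 on the plus strand (RefSeq, GRCh38.p14).
hsa-miR-99b-5p: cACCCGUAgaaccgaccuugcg
None of the 50 canonical RAB transcripts held TACGGGT, which pairs with the whole seed, or ACGGGTA, which pairs with bases 2 to 7 and ends in an adenine, anywhere along its sense strand, while 671 of 11747 tested protein-coding genes did (5.71%). The shorter ACGGGT, which lies within both, occurred in RAB6B and RAB15 alone, which is 4% of the members against 17.1% of the protein-coding genes. RAB6B is a Golgi RAB of the RAB6 group, and RAB15 acts on recycling endosomes. Both matches, shown in capitals with 8 bases on each side, lie in 3′ untranslated regions of genes on the minus strand and are written as in the transcript (GENCODE 44, GRCh38).
RAB6B, chr3:133826649-133826654: ttatatgcACGGGTgtgcatgc
RAB15, chr14:64945915-64945920: tccctgtgACGGGTgaacttcg
Neither gene was higher in the mimic AGO2-IP. RAB6B measured 1.39 and 2.26 CPM in the AGO2-IP libraries against 1.38 and 2.84 in the flow-through, and RAB15 measured 9.54 and 17.1 against 15.1 and 31.0. The ranges overlapped for both, with log2 fold changes of -0.34 (SE 0.859) and -0.92 (SE 0.739).

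The first comparison asked which RAB transcripts were enriched in AGO2-IP over flow-through in mimic cells. RAB1A, which drives transport from the endoplasmic reticulum (ER) to the Golgi, stood highest, followed by RAB18, RAB12 and RAB27A. RAB1B, the close relative of RAB1A, stood lowest, below RAB11B and RAB2B. No member passed the thresholds (log2 fold change of at least 1 in size, adjusted p of at most 0.05) when edgeR's quasi-likelihood test was run over all 13078 genes and its p-values were adjusted by the Benjamini-Hochberg method, against 0.245% of all genes called higher and 0.413% called lower. The lowest adjusted p among members in that test was 0.0617, for RAB1A. At an unadjusted p under 0.05 there were 11 members, 5 higher and 6 lower in AGO2-IP, which is 22% of the members against 23.8% of all genes.

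With the replicate number as a block, which sets each AGO2-IP against the flow-through of its own replicate, 4 members were called higher (RAB1A, RAB18, RAB12 and RAB27A; 4.6% of all genes) and 3 lower (RAB1B, RAB11B and RAB2B; 5.08% of all genes). PyDESeq2 called the same 7 and also RAB21, giving 5 higher against 6.43% of all genes and 3 lower against 8.24%. Without mimic flow-through replicate 1, edgeR called 15 members higher and 10 lower (20.2% and 20.6% of all genes), without flow-through replicate 2 it called 2 and 3 (1.9% and 3.4%). Without AGO2-IP replicate 1 it called no member (0.103% of all genes higher and 0.175% lower), and without AGO2-IP replicate 2 none as well (0.0157% and 0.157%).

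RAB1A (chr2:65070696-65130331, minus strand) was the most abundant RAB transcript per length in the mimic AGO2-IP, at a mean of 345 CPM per kb of transcript. It measured 907 and 784 CPM in AGO2-IP and 129 and 15.5 CPM in flow-through from mimic cells, and 340 and 60.6 CPM in the same fractions of control cells. The AGO2-IP values were close together and lay above both flow-through values, which themselves differed widely. The log2 fold change was 3.70 (SE 0.845), and 4.20 with the replicate block (adjusted p = 2.85e-05 in edgeR). Its share of all RAB counts was 22.6% (95% Wilson interval 22.4 to 22.7%) and 22.2% (22 to 22.4%) in the AGO2-IP libraries, against 3.73% (3.63 to 3.82%) and 0.705% (0.656 to 0.757%) in the flow-through. Each interval covers counting error within a single library, taking read pairs as independent, and leaves out differences between libraries. No molecular identifiers are described for the reads, so amplified copies may count as separate pairs.

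RAB18 (chr10:27504174-27543207, plus strand), a RAB of the ER and of lipid droplets, measured 382 and 319 CPM in AGO2-IP and 94.9 and 14.6 CPM in flow-through from mimic cells, and 125 and 40.9 CPM in the same fractions of control cells. RAB12 (chr18:8609437-8639383, plus strand), which acts in traffic to lysosomes, measured 160 and 175 CPM, 39.4 and 13.9, 205 and 27.1 in the same order. In both genes each AGO2-IP library exceeded each flow-through library, control cells included. The log2 fold changes were 2.81 (SE 0.774) for RAB18 and 2.72 (SE 0.654) for RAB12, with adjusted p of 0.0847 and 0.0656 in edgeR's test. Between mimic and control cells, bulk libraries cannot tell a smaller number of cells holding a transcript from less of it per cell.

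RAB27A (chr15:55202966-55319113, minus strand), which docks secretory vesicles and exosome-bearing endosomes at the plasma membrane, measured 144 and 90.9 CPM in AGO2-IP from mimic cells and 43.7 and 6.45 CPM in their flow-through. It had 38.8 CPM in the control AGO2-IP and 29.5 CPM in the control flow-through. The mimic fractions did not overlap, and the control fractions were nearer to each other. The order of the control fractions depended on the scaling. Their log2 ratio of AGO2-IP over flow-through was 0.39 with library size alone. It was -0.49 after scaling by the trimmed mean of M-values (TMM). Its log2 fold change was 2.35 (SE 0.784, adjusted p = 0.119 in edgeR's test). With the replicate block the adjusted p in edgeR was 0.0125, and after removal of the trend that each library showed along transcript GC content it was 0.0648 without the block.

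Among the lowest, RAB1B (chr11:66268590-66277492, plus strand), which acts in ER-to-Golgi transport as RAB1A does, measured 33.3 and 42.2 CPM in AGO2-IP from mimic cells, 140 and 401 CPM in their flow-through, and 83.1 and 142 CPM in control AGO2-IP and flow-through. RAB11B (chr19:8389981-8404434, plus strand), a RAB of recycling endosomes, measured 38.7 and 32.9, 199 and 206, and 59.2 and 110 CPM in that order. RAB2B (chr14:21459020-21476960, minus strand), a Golgi RAB, measured 5.46 and 3.87, 27.4 and 21.1, and 3.96 and 9.26 CPM. In all 3 genes the flow-through exceeded the AGO2-IP in mimic and control cells alike. Their log2 fold changes were -3.01 (SE 0.763), -2.57 (SE 0.621) and -2.41 (SE 0.696). The adjusted p in edgeR's test was 0.0736 for RAB1B, 0.066 for RAB11B and 0.0922 for RAB2B, and 0.0121, 0.0162 and 0.0258 with the block.

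The adjusted p of these 7 genes depended on the analysis. Over 15 alternatives in edgeR or PyDESeq2, with single libraries left out included, it ran from 1.86e-05 to 0.224 for RAB1A, from 0.000393 to 0.653 for RAB18, from 0.000277 to 0.655 for RAB12 and from 0.00118 to 0.795 for RAB27A. It ran from 0.000561 to 0.783 for RAB1B, from 0.00105 to 0.784 for RAB11B and from 0.000149 to 0.795 for RAB2B. The ranges of adjusted p include the fits with a library left out, where the spread comes from 1 fraction alone, so they do not measure certainty. The direction of each gene was the same in all 15.

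**Figure D1:**
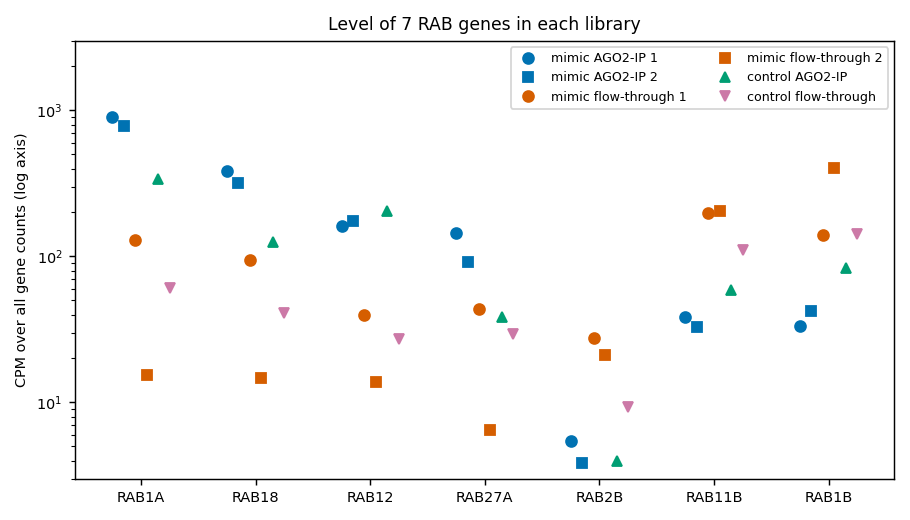
CPM on a log axis (y) of the 4 highest and 3 lowest RAB genes named above (x), 1 point per library. The mimic AGO2-IP points of RAB1A, RAB18, RAB12 and RAB27A sit above both mimic flow-through points, and those of RAB2B, RAB11B and RAB1B sit below them. For RAB1A the flow-through points lie at 129 and 15.5 CPM.

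Over the 50 members the log2 fold changes ran from -3.01 to 3.70, with 22 above 0 (47% of all genes) and 28 below. Their median was -0.38, against -0.11 over all genes tested and -0.05 over protein-coding genes. Without mimic flow-through replicate 1 the median of the 48 members that still reached the minimum was 0.74, against 0.09 over all genes, and with the block it was -0.094. With a filter of 10 counts in place of 200 it was -0.017 against -0.37 over all genes, and with no filter 0.022 against -0.52. The sign of the median, and whether it lay above or below that of all genes, thus depended on the libraries and the filter. A log2 fold change of at least 1 was reached by 9 members (20% of all genes) and of at most -1 by 12 (26.9%), without regard to the test. After TMM scaling (the trimmed mean of M-values), both AGO2-IP libraries lay above both flow-through libraries in 16 members (28.1% of all genes do so) and below them in 14 (28.5%), while the other 20 overlapped. On CPM without that scaling, as the values of single libraries are printed here, the counts were 14 (26.4%) and 13 (28.7%), with RAB7A and RAB22A no longer among the former.

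The spread came mainly from the flow-through. RAB genes differed over 2-fold between the mimic flow-through libraries in 35 of 50 cases, 24 of them higher in replicate 1 and 11 higher in replicate 2. Between the AGO2-IP libraries 3 of 50 differed over 2-fold. The SD of the log2 difference between replicates was 1.67 in the flow-through and 0.59 in the AGO2-IP. Over all genes tested it was 1.44 and 0.84, so the wider flow-through was not particular to RAB genes. RAB6A, the main Golgi RAB of retrograde transport, had 162 and 12.7 CPM in the flow-through against 106 and 68.1 CPM in the AGO2-IP. Pairs shared with a gene on the other strand enter that gap. RAB6A counts were 117 and 4.47 times those of RAB6B in flow-through replicates 1 and 2. With pairs counted by strand they were 119 and 41.0 times. RAB17, an epithelial RAB of recycling endosomes, had 1.19 and 13.9 CPM in the flow-through against 3.14 and 6.02 CPM in the AGO2-IP, the opposite order between replicates.

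**Figure D2:**
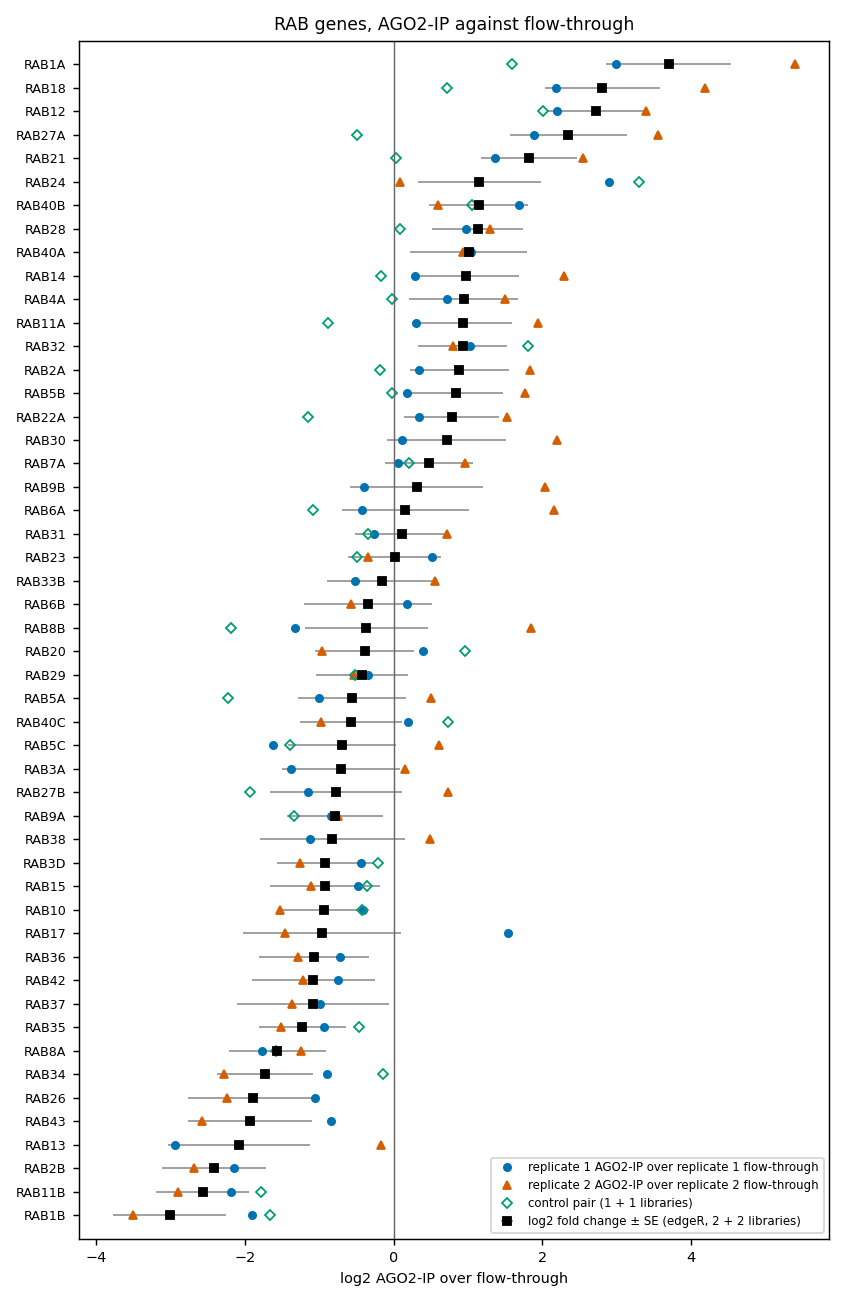
Log2 AGO2-IP over flow-through (x) for the 50 RAB genes (y), ordered by the edgeR log2 fold change of the 2 and 2 mimic libraries, drawn as squares with SE bars. Circles and triangles give each mimic replicate, and open diamonds the single control pair where it had at least 200 counts. The highest gene is RAB1A at 3.70 and the lowest RAB1B at -3.01, and the replicate points of middle genes such as RAB6A and RAB17 lie on opposite sides of 0.

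Grouped by the compartment where each RAB acts, 19 RAB genes of the ER and Golgi were listed and 12 were measured. Their median log2 fold change was -0.25 with 5 above 0, and the group held the extremes of the family. Besides RAB1A and RAB18, RAB2A, which works between ER and Golgi, had a log2 fold change of 0.88 and RAB30, a Golgi RAB, 0.71. RAB34, which positions lysosomes and serves cilia, had -1.73, RAB43 -1.93 and RAB36 -1.07, while RAB6A (0.16) and RAB33B (-0.15) lay near 0. RAB43 shares its locus with the readthrough gene ISY1-RAB43 on the same strand, so its counts are those reads that fit no second gene.

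Of 16 listed RAB genes of early and recycling endosomes 14 were measured, with a median of -0.14 and 7 above 0. RAB21, which recycles integrins, measured 212 and 198 CPM in the mimic AGO2-IP against 93.7 and 28.4 CPM in the flow-through (log2 fold change 1.83, SE 0.647). RAB14 (0.98), the fast-recycling gene RAB4A (0.94), RAB11A (0.93), RAB5B (0.84) and RAB22A (0.78) followed. RAB4A fell to 0.28 and 0.14 with the counts of each strand, its unstranded count being 68.9% of their sum. RAB31 (0.11), RAB20 (-0.39), RAB5A (-0.56) and RAB5C (-0.69) lay closer to 0. RAB35, which returns receptors to the surface, measured 78.4 and 61.4 CPM against 170 and 147 CPM (log2 fold change -1.22, SE 0.589), with RAB17 at -0.96 and RAB11B below. Apart from RAB21 under PyDESeq2 and RAB11B, none of these 14 was called by PyDESeq2 or with the block.

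Late endosomes, lysosomes and related organelles were represented by 8 of 9 listed genes, with a median of 0.40 and 5 above 0. RAB7A, the principal RAB of late endosomes, measured 179 and 203 CPM in the mimic AGO2-IP against 194 and 87.1 CPM in the flow-through, a log2 fold change of 0.48 (SE 0.591). RAB24, linked to autophagy, had 1.15 and RAB32, which serves lysosome-related organelles, had 0.93. RAB9B had 0.31, RAB29 -0.43, RAB9A -0.79 and RAB38, the relative of RAB32, -0.82.

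Of 12 listed RAB genes of secretion and polarised delivery 10 were measured, and RAB27A was the single one above 0. The group median was -0.93. RAB10, which delivers vesicles to the basolateral and plasma membrane, measured 149 and 86.0 CPM in the mimic AGO2-IP against 224 and 208 CPM in the flow-through (log2 fold change -0.94, SE 0.601). RAB8A, a RAB of exocytosis and cilia, measured 18.4 and 13.9 CPM against 70.9 and 27.5 CPM (-1.56, SE 0.655). The others were RAB8B (-0.36), RAB3A (-0.70), RAB27B (-0.77), RAB3D (-0.92), RAB37 (-1.08), RAB26 (-1.89) and the junctional gene RAB13 (-2.08). The median GC content of this group was 51.7%. It was 41.9% for the ER and Golgi group and 44.3% for early and recycling endosomes. Late endosomes and lysosomes had 46.1%, and the remaining members 49.5% with a median log2 fold change of 0.51. The group medians of the fold change did not follow the order of GC content. Among 6 remaining members, RAB40B (1.14), RAB28 (1.13), RAB40A (1.01) and RAB23 (0.02) were above 0, and RAB40C (-0.57) and RAB42 (-1.08) below. The groups were not tested against each other.

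Close relatives can be set against each other within a library, as a ratio of 2 counts that no scaling between libraries affects. The ratios are read across libraries, since transcript length enters a level but cancels between fractions. RAB1A counts exceeded RAB1B counts 27.3-fold and 18.6-fold in AGO2-IP from mimic cells. The ratio was 0.915 and 0.0386 in their flow-through, and 4.09 and 0.428 in AGO2-IP and flow-through of control cells. Per kb of transcript the ratios were 21.2 and 14.4, 0.711 and 0.03, and 3.18 and 0.333 in that order, so RAB1A was the more abundant per length in each AGO2-IP library and RAB1B in each flow-through library. With pairs counted by strand, which keeps the pairs that RAB1B shares with genes on the other strand whichever gene they came from, the ratios were 9.40 and 5.38, 0.318 and 0.0267, 1.33 and 0.161 in the same order.

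RAB11A counts were 3.5 and 4.27 times those of RAB11B in AGO2-IP from mimic cells and 0.623 and 0.148 times in flow-through, with 1.03 and 0.546 in the fractions of control cells. RAB2A to RAB2B stood at 18.4 and 23.5 against 3.27 and 1.01, with 20.1 and 5.25 in the control. RAB27A to RAB27B stood at 5.14 and 7.25 against 0.620 and 1.02, with 4.06 and 1.47 in the control. In each of these pairs the ratio was higher in both AGO2-IP libraries than in both flow-through libraries, in mimic cells, and higher in AGO2-IP than in flow-through in control cells. RAB5B to RAB5C stood at 10.7 and 8.52 against 3.07 and 3.84, and 7.64 and 2.94 in the control, while RAB5A to RAB5B went the other way, at 0.333 and 0.190 against 0.757 and 0.457, and 0.0979 and 0.455 in the control.

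Of 14 such pairs in 10 sets of relatives, 9 had AGO2-IP ratios that did not overlap the flow-through ratios in mimic cells, and in 7 of those 9 the control libraries differed in the same direction. No share over other gene pairs is at hand, but among single genes 28.1% lay higher and 28.5% lower without overlap. The 9 pairs are thus not a result about relatives. Pairs within the RAB5 and RAB40 sets share genes, and RAB40A had as few as 10 counts in a library. In 7 of the 9 the relative with the larger part in AGO2-IP had the lower GC content. RAB27A (39.3% GC) over RAB27B (35.1%) and RAB5B over RAB5A were the exceptions in GC. RAB40A to RAB40C and RAB8A to RAB8B were the exceptions in direction, the latter at 0.574 and 0.374 in the mimic AGO2-IP against 0.780 and 3.20 in the flow-through, but 1.64 against 1.07 in the control. With 2 libraries against 2, an exact two-sided permutation test cannot go below a p of 0.333, so no ratio was tested.

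**Figure D3:**
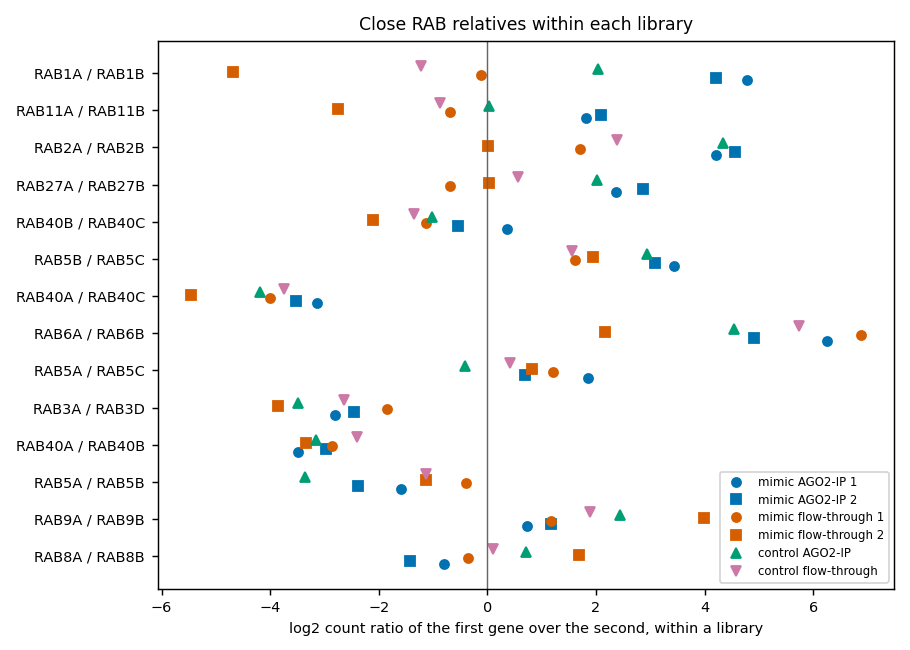
Log2 count ratio of the first over the second gene within each library (x) for 14 pairs of close RAB relatives (y), 1 point per library. The mimic AGO2-IP points lie right of both mimic flow-through points for the RAB1, RAB11, RAB2 and RAB27 pairs, with the RAB1 pair farthest apart, from 27.3-fold down to 0.0386-fold.

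In mimic cells the log2 fold change followed the GC content of the canonical transcript, which ran from 34.9% to 65.3% over the members. Across the 50 genes Spearman's rho was -0.58 and Pearson's r was -0.57, and across 11747 protein-coding genes they were -0.55 and -0.55. These points share the same 4 libraries and are not independent replicates. Of 22 members under 45% GC, 15 were above 0, with a median of 0.51. Of 15 members at 55% or more, RAB24 alone was above 0 and the median was -1.07. Of 13 between these bounds, 6 were above 0 with a median of -0.34. No share over other genes in these bands is at hand. Since protein-coding genes had a similar rho, the bands are not read as particular to RAB genes. RAB2B stood apart, with 43.0% GC and a log2 fold change of -2.41. The single control pair did not show the decline with GC, with a rho of 0.18 over 35 members.

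GC content also moved with the difference between the flow-through replicates, with a rho of -0.71 over the members, against -0.31 for the AGO2-IP replicates. Without flow-through replicate 1 the rho of the fold change with GC was -0.76, and without replicate 2 it was -0.20. With each library's GC trend removed, edgeR called RAB1A, RAB18 and RAB12 higher (3.32% of all genes) and RAB2B lower (2.36%). With the block as well it called 7 higher (14% of all genes) and 7 lower (12.7%), the former adding RAB21, RAB24 and RAB40B to the 4 leading genes and the latter adding RAB10, RAB27B, RAB8A and RAB9A to the 3 lowest. RAB1A kept a log2 fold change of 3.23 and RAB2B reached -3.07 after removal of the trend, while RAB1B came to -1.77 and RAB11B to -1.43. The part of base composition in these differences was not tested.

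**Figure D4:**
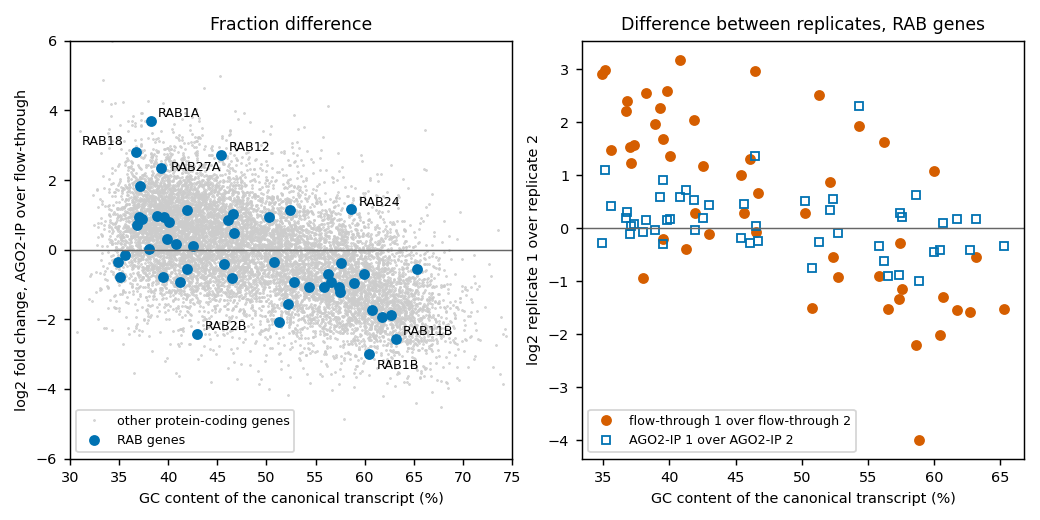
Left, log2 fold change of AGO2-IP over flow-through in mimic cells (y) against the GC percent of the canonical transcript (x), with RAB genes in blue over other protein-coding genes in grey. Right, log2 replicate 1 over replicate 2 (y) against GC (x) for the same RAB genes, in the flow-through (filled) and the AGO2-IP (open). Fold changes decline with GC, RAB24 is the single member above 0 at 55% GC or more, and the flow-through replicates differ along GC with a rho of -0.71.

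In control cells, where the scrambled oligonucleotide replaced the mimic, 35 members had at least 200 counts over the pair of libraries. With 1 library per fraction there is no replicate check and no test. The log2 ratio of AGO2-IP over flow-through, on TMM-scaled CPM, ran from -2.22 for RAB5A to 3.31 for RAB24, the latter on 195 and 9 counts. Its median was -0.35, against 0.01 over all genes. By GC content it was -0.46 in 18 members under 45%, 0.09 in 8 from 45% to 55% and -0.36 in 9 at 55% or more. Scaling by library size alone raised the median of all genes by 0.88, so counts and directions depend on the scaling. A ratio of at least 1 was found in 5 members (RAB24, RAB12, RAB32, RAB1A and RAB40B; 15.9% of all genes) and of at most -1 in 10 (18.1%). With library size alone the counts were 9 (46.1% of all genes) and 3 (5.06%). RAB12 had 2.01, RAB1A 1.59 and RAB18 0.72, and at the other end RAB11B had -1.78 and RAB1B -1.66. Of the 35 members, 23 lay on the same side of 0 as in mimic cells after TMM scaling. No share over all genes is at hand to set beside that number, which also depends on the scaling.

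Setting mimic AGO2-IP against control AGO2-IP asked which RAB transcripts were more abundant in the pull-down with the mimic. Of 45 members, 12 had a mean log2 ratio of at least 1 (17.3% of all genes) and 3 of at most -1 (17.4%), or 11 (14.2%) and 7 (20.7%) with library size alone. In both mimic libraries 11 passed the upper bound and RAB42 alone the lower (12.2% of all genes each). The highest were RAB27A (1.69), RAB18 (1.61), RAB30 (1.47), RAB1A (1.44) and RAB21 (1.41), and the lowest were RAB42 (-1.86), RAB15 (-1.36) and RAB1B (-1.01). RAB12 was not among the former, at 160 and 175 CPM in mimic against 205 CPM in control. Over these 45 genes the ratio had a rho of -0.85 with GC, and with the GC trend removed the largest of the 5, RAB27A, stood at 0.93. The mimic and control libraries differed in depth, in multimapping reads and in mitochondrial counts as well as in transfection, and these cannot be told apart.

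In the flow-through, where 49 members were compared, 2 had a log2 ratio (mimic over control, mean of both) of 1 or more (RAB24 at 1.74 and RAB43 at 1.73; 10% of all genes) and 4 of at most -1 (RAB13, RAB6A, RAB27A and RAB9B; 10.2%). In both mimic libraries none passed the upper bound (2.8% of all genes), and RAB13 alone passed the lower (3.35%), with -1.03 and -3.5. RAB13 measured 9.81 and 1.19 CPM in the mimic flow-through and 12.1 CPM in the control, and its gene overlaps another on the same strand. RAB6A, with 162 and 12.7 CPM in mimic and 88.9 CPM in control, had ratios of 0.14 and -3.01. The latter rests on the unstranded count of replicate 2, which was lowered by pairs shared with another gene. Scaling by library size alone shifted the median of all genes by 0.47 here and gave 10 members at 1 or more (26% of all genes) and 1 at -1 or less (4.16%). Over the 49 members the mean ratio had a rho of 0.43 with GC.

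The proteins that act on RABs were described by a list of 104 genes, of which 95 were tested. None was called by edgeR's quasi-likelihood test, 12 were higher and 12 lower at an unadjusted p under 0.05 (23.8% of all genes in either direction), and the median log2 fold change was 0.09 with 51 above 0. With the replicate block RABGGTB, CCZ1 and CCZ1B were called higher (4.6% of all genes) and RABAC1 lower (5.08%), and PyDESeq2 called 4 higher (6.43%) and 9 lower (8.24%). RABGGTB encodes the catalytic beta subunit of RAB geranylgeranyl transferase. It measured 263 and 177 CPM in AGO2-IP and 39.5 and 11.8 CPM in flow-through from mimic cells, and 119 and 13.5 in the fractions of control cells. Its log2 fold change was 3.18 (SE 0.694, adjusted p = 0.0575 in edgeR's test), and its control ratio was 2.24.

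RABAC1, a small membrane protein that binds RABs and GDI, measured 1.05 and 0.342 CPM against 2.7 and 11.7 CPM (log2 fold change -3.57, SE 1.06). In the same group of 8 prenylation and GDI genes, CHM, the escort protein, had 0.83 and RABIF -1.79. Of 31 GEF genes measured, CCZ1B (2.17) and CCZ1 (1.98), subunits of the exchange factor of RAB7, were highest, but they are near-identical copies whose reads the counting can split or drop. RIN1 (-2.22), a RAB5 exchange factor, and RAB3IL1 (-1.98) were lowest. Of 24 GAP genes TBC1D15 (1.71) and RABGAP1L (1.67) were highest and TBC1D2 (-1.95) and TBC1D22A (-1.46) lowest. Of 32 effectors SYTL4 (2.06), which binds RAB27, and USO1 (1.82), the tether that RAB1 recruits, were highest, and SYTL1 (-2.47) and UNC13D (-2.23), which also serve RAB27, were lowest. Each of the 4 partner groups held genes on both sides of 0.

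**Figure D5:**
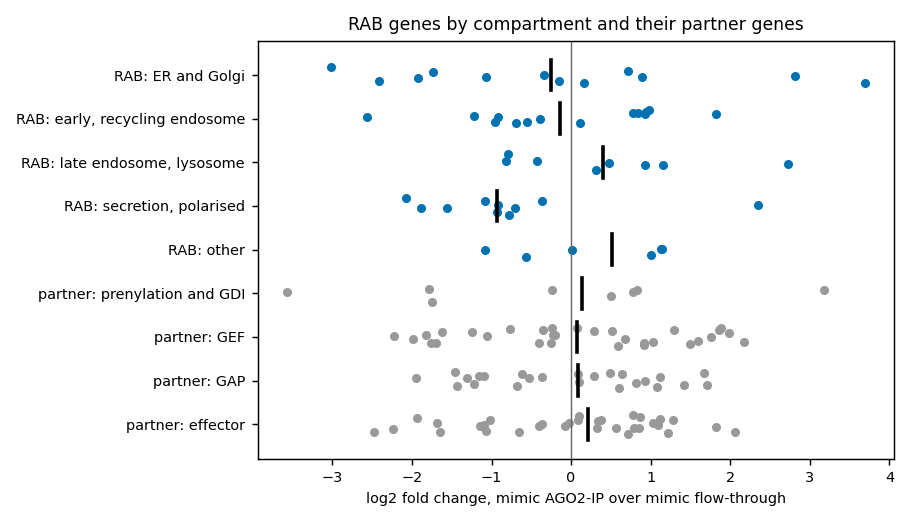
Log2 fold change of mimic AGO2-IP over mimic flow-through (x) for RAB genes by compartment (blue) and for their partner genes by role (grey), 1 point per gene with black bars at group medians. The secretion group has its median at -0.93 with RAB27A as the single gene above 0, and the partner groups have medians between 0.07 and 0.21.

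Counting limits some members. STAR drops pairs that fit more than 1 gene, and 13 members had an unstranded count under 90% of the sum of both stranded counts, the lowest being RAB8A (31.2%), RAB1B (50.3%), RAB40A (53.5%), RAB6A (59.8%) and RAB12 (61.9%). With either strand column RAB6A had a negative log2 fold change (-0.58 and -0.57), and none of the other 47 members measured there reversed. Annotated RAB pseudogenes held at most 30 counts over the mimic libraries.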

How the data were processed

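Per the labels, RNA from AGO2-IP and flow-through fractions was sequenced as paired-end libraries. The authors used FastQC 0.11.9, cutadapt 3.5 and STAR 2.7.11b on GRCh38, and deposited STAR's count of read pairs per gene, whole numbers without normalization, unstranded and for each strand. Which Ensembl release was used is not given in the sources used here. The unstranded count was used, and rows naming no gene (at least 21.4% of read pairs) were left out. Of 60708 identifiers 60463 matched GENCODE 44, which gave names, coordinates and canonical transcripts.

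Mimic AGO2-IP and flow-through (2 libraries each) were compared with edgeR 4.0.16 in R 4.3.3 (TMM, glmQLFit and glmQLFTest, two-sided) over genes reaching 200 counts in sum, with Benjamini-Hochberg adjustment over all 13078. SE is the size of the log2 fold change divided by the square root of F. The labels number the biological replicates in both fractions, and libraries of the same number deviated together from the group means (Pearson's r 0.324, Spearman's rho 0.236, over genes, which are not independent), so the block value is given where it changes a call. The study's methods call the replicates biological and independent, and give 2 of them for AGO2-IP of control cells too. The labels give a single library of that kind. Control comparisons are log2 ratios of TMM-scaled CPM (prior count 2). CPM of single libraries uses the gene counts alone, without TMM. Counts of members whose fractions do not overlap use TMM-scaled CPM, and their counts without TMM were added after seeing the data. Alternatives were PyDESeq2 0.5.4, other scalings, filters and strand columns, protein-coding genes only, the block, a GC trend (lowess, span 0.2) and each library left out. The fits were also run on simulated data, with the same spread in all libraries and no pairing or GC trend. Such data differ from these libraries, so that run does not measure the error of the fits here.

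The members, compartments, relatives, partners and markers were chosen with earlier results of these data known. Values per library are given for members called with the block among the 6 largest and 6 smallest fold changes, and ratios for close relatives. Other members are given by their fold change, and those described further (RAB6A, RAB7A, RAB10, RAB13, RAB17, RAB21, RAB35, RAB8A and the genes with a seed match) were chosen after their values were seen. Among partners, the 2 highest and 2 lowest of each class are named.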

Additional observations from a re-analysis of the deposited data

Results flagged for a closer look

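After TMM scaling, in 6 members both mimic AGO2-IP libraries lay above both mimic flow-through libraries while the single control ratio of AGO2-IP over flow-through lay below 0, against 11.6% of the 8225 genes with both measures that were divided in this way in either direction. The log2 values, first in mimic and then in control cells, were 2.35 and -0.49 for RAB27A, 0.98 and -0.17 for RAB14, 0.93 and -0.87 for RAB11A, 0.88 and -0.18 for RAB2A, 0.84 and -0.02 for RAB5B, and 0.78 and -1.15 for RAB22A. RAB22A overlapped on CPM without that scaling, with 219 and 186 CPM in AGO2-IP against 195 and 54.1 CPM in flow-through. Whether mimic cells differed from control cells was not tested, as each control fraction is a single library. With library size alone in place of TMM the control ratios were 0.39, 0.72, 0.01, 0.71 and 0.87 for the first 5 genes, and RAB22A alone stayed below 0, at -0.26.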

How the results depend on the processing

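Over 15 alternatives, 33 of the 50 RAB genes kept the direction of their log2 fold change, among them RAB1A, RAB18, RAB12, RAB27A, RAB21, RAB1B, RAB11B and RAB2B, and 17 reversed at least once, none of them with a size above 0.96. RAB1A ranged from 2.89 to 5.44 and RAB1B no higher than -1.71. The numbers called higher and lower over all genes, 32 and 54 as reported, were 13 and 33 with DESeq2's size factors, 9 and 35 with library size alone, 144 and 86 with a filter of 10 counts, 419 and 204 with no filter, 1 and 17 or 2 and 12 with a strand column, 601 and 664 with the replicate block, 841 and 1077 with PyDESeq2, 0 and 0 with protein-coding genes only, 434 and 309 with the GC trend removed, 1835 and 1658 with block and GC trend removal, and 2 to 2476 and 20 to 2527 with a library left out. Among members, 0 as reported, 1 was called higher with the filter of 10, 4 with no filter, 4 with the block, 5 with PyDESeq2, 3 with the GC trend removed, 7 with both, and 0 to 15 with a library left out. Lower calls were 3 with the block, 3 with PyDESeq2, 1 with the GC trend removed, 7 with both, and 0 to 10 with a library left out. The cause was not tested.

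The replicate block reversed RAB33B (0.016), RAB8B (0.26) and RAB17 (0.026), and it changed no call of another member beyond those given above. The filter of 10 gave 0.12, 0.11 and 0.051 for RAB33B, RAB6B and RAB20, and no filter 0.13, 0.16 and 0.10. RAB6A was -0.0045 with library size alone and -0.58 and -0.57 with the strand columns, and RAB23 was -0.050 with protein-coding genes only. With the GC trend removed RAB9B was -0.14, RAB6A -0.21, RAB31 -0.40, RAB23 -1.23, RAB20 0.43, RAB40C 0.94 and RAB17 0.29. With the block as well RAB31 was -0.39, RAB23 -0.79, RAB20 0.44, RAB40C 0.93, RAB5C 0.089, RAB3A 0.31 and RAB17 0.86. With a library left out, 16 members changed sign: RAB30 (-0.069 to 2.33), RAB9B (-0.50 to 2.10), RAB6A (-0.73 to 2.45), RAB31 (-0.39 to 0.78), RAB23 (-0.42 to 0.53), RAB33B (-0.74 to 0.73), RAB6B (-0.96 to 0.59), RAB8B (-1.21 to 1.68), RAB20 (-0.89 to 0.26), RAB5A (-1.28 to 0.75), RAB40C (-1.18 to 0.35), RAB5C (-1.32 to 0.30), RAB27B (-1.64 to 1.34), RAB38 (-1.69 to 1.30), RAB15 (-1.54 to 0.014) and RAB17 (-1.92 to 2.13).

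The member median (-0.38) ranged from -0.40 to 0.74 with a library left out, was 0.022 with no filter, -0.017 with the filter of 10, -0.094 with the block and -0.054 with block and GC trend removal, and lay between -0.48 and -0.21 with the other alternatives. With library size alone the control median (-0.35) became 0.54, that of mimic over control flow-through (-0.27) 0.19, and that of mimic over control AGO2-IP (0.043) -0.091. The last was 0.14 and -0.0011 with the strand columns, -0.13 with the GC trend removed, and -0.083 to 0.34 with a mimic library left out. Depth limits the members near the minimum, and 15 of them had no control ratio of AGO2-IP over flow-through.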
